A study of Homo sapiens with 2 samples.

Results

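The enzyme genes described here are PGLS, PGD, RPIA, RPE, TKT and TALDO1 of the pentose phosphate pathway, together with ME1, IDH1 and IDH2, whose products make NADPH by other reactions. They were chosen by gene symbol, 9 of the 58735 genes in the deposited count table, and all 9 were found and passed the minimum of 50 reads in at least 1 library. The RNA-seq libraries came from dihydroartemisinin (DHA)-treated cells and from untreated cells (label NC) of HM-SUIT-2, a derivative with high metastatic potential of the human pancreatic adenocarcinoma line SUIT-2. DHA is the compound to which the artemisinin antimalarials are converted in the body. No dose, exposure time or vehicle is stated in the labels. There was 1 library per group, so no difference below has a replicate check, no p-value was computed, and every interval covers counting error only. In a bulk library, fewer cells that express a gene and less RNA per cell cannot be told apart.

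The DHA library held 14521101 counted reads and the untreated library 15452609. The protocol text names retina, but the retinal marker genes SAG, CRX, GNAT1 and RCVRN had 0 reads in both libraries, and a list of 10 retinal markers together had 17 reads in the DHA library and 36 in the untreated library. Of 7 pancreatic ductal epithelial markers, 6 passed the read minimum, with log2 ratios of DHA over untreated between -5.23 and -1.23, and their part in the results below was not tested. The immune markers PTPRC and CD3E and the endothelial marker CDH5 had 0 reads in both libraries. The endothelial marker PECAM1 had 54 reads in the DHA library and 280 in the untreated library.

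The pentose phosphate pathway leaves glycolysis at glucose 6-phosphate. Its oxidative branch reduces NADP to NADPH and ends in ribulose 5-phosphate, and its reversible non-oxidative branch turns that sugar into ribose 5-phosphate for nucleotides or returns the carbon to glycolysis. Cytosolic malic enzyme and the isocitrate dehydrogenases are further sources of NADPH, which glutathione and thioredoxin reductases spend on peroxide removal and fatty acid and sterol synthesis spend on reduction. Several of these genes, among them PGD, TKT, TALDO1, ME1 and IDH1, are known targets of NRF2, the transcription factor of oxidative stress defence, which binds the antioxidant response element.

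Promoter stretches with the core of the antioxidant response element are shown for the genes that carry it. Those genes include the highest and the lowest ratio of the 9, and a link between the core and the ratios was not tested. RefSeq windows of 250 bases upstream of the start (GRCh38.p14) were found for 9 of the 9 genes, 10 windows in all, since IDH1 has a pair of starts. The core was searched on both strands as TGACNNNGC. It was present in 4 of the 10 windows, at 4 of the 9 genes, against 10.9% of 35116 windows over all genes. Each line gives 30 bases on either side in lower case and the core in capitals, written 5′ to 3′ on the strand of the gene.
PGD: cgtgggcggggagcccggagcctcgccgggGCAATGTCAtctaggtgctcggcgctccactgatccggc
RPE: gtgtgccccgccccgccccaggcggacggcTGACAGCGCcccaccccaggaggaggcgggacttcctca
ME1: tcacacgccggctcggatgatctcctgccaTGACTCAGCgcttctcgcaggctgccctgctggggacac
IDH1: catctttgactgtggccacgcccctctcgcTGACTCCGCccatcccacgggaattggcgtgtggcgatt
The PGD stretch lies at chr1:10398833-10398901 (plus strand), and its core reads on the opposite strand, 201 to 193 bases before the start. The RPE stretch lies at chr2:210002457-210002525 (plus strand), with the core 151 to 143 bases before the start. The ME1 stretch lies at chr6:83431150-83431218 (minus strand), with the core 137 to 129 bases before the start. The IDH1 stretch lies at chr2:208255176-208255244 (minus strand), with the core 143 to 135 bases before the start at 208255071. The window of the other IDH1 start, at 208254458, had no core. None of these 4 stretches overlaps an exon in GENCODE release 29, and those of PGD and IDH1 lie inside the annotated span of their own gene. The ME1 core also holds the AP-1 letters TGACTCA, a match to TGANTCA that only ME1 had among the 9 genes and that 6.57% of all windows had. No TGACNNNGC was in the windows of PGLS, RPIA, TKT, TALDO1 and IDH2. A match of letters is a description and not evidence of binding.

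None of the 9 genes differed by 2-fold between the libraries. A call needed 50 reads or more in either library, a 2-fold or larger ratio after TMM scaling (trimmed mean of M values), and a 95% counting interval that excluded 1. By that rule 0 of 9 were higher and 0 of 9 lower in the DHA library, against 6.72% higher and 10.3% lower among 12064 genes with enough reads. At 1.5-fold, 1 of the 9 was lower (IDH1) and 0 higher, against 19.2% lower and 18.9% higher among all genes. That count holds for TMM scaling. The IDH2 ratio was past 1.5-fold with some other scalings, and that of PGD with the gene length trend removed (log2 ratio 0.61). The log2 ratios ran from -0.79 (IDH1) to 0.50 (PGD) with a median of -0.10, and the median over the 12064 genes was 0.04. The counting interval excluded 1 on the higher side for PGD, RPE and PGLS and on the lower side for IDH1, IDH2, TKT and ME1. That makes 7 of 9, where 75.3% of all genes had such an interval, 39.8% on the higher and 35.5% on the lower side. The count of 7 holds for TMM scaling. The log2 intervals of PGLS (0.02 to 0.40) and ME1 (-0.20 to -0.01) ended close to 0. Another scaling moved each ratio by more than that margin, PGLS to 0.17 with DESeq2 size factors and ME1 to -0.091 with total reads.

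**Figure D1:**
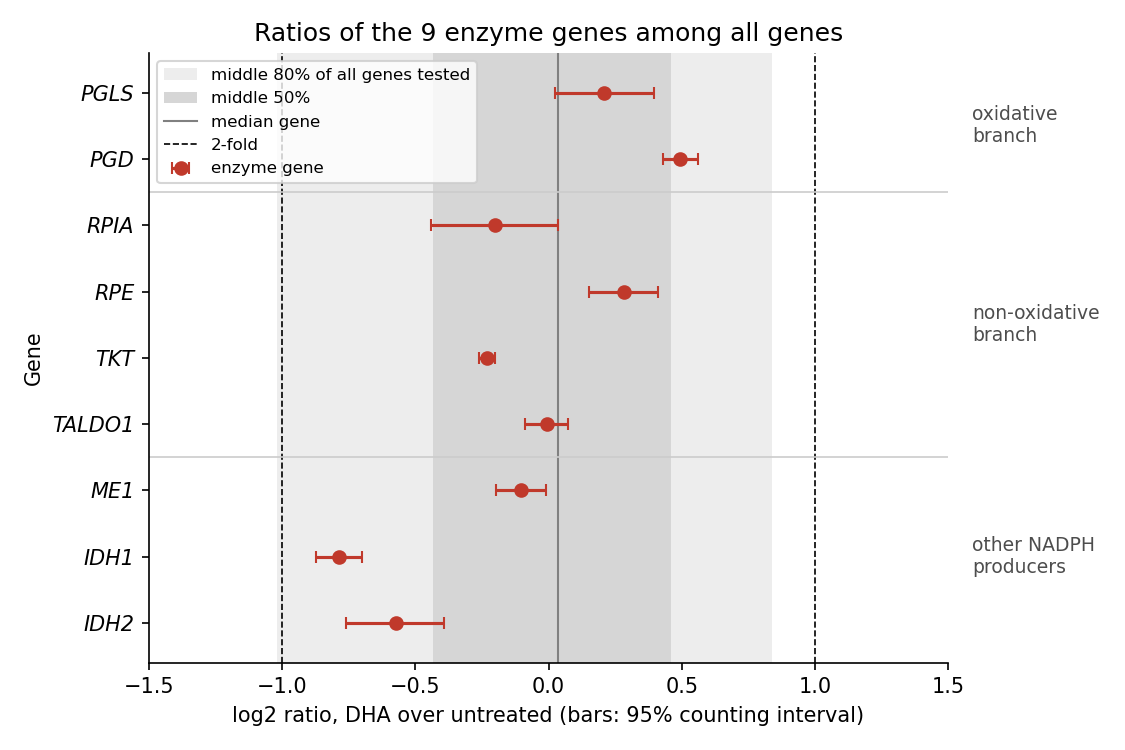
Log2 ratio of the DHA library over the untreated library for each of the 9 genes (points, with 95% counting intervals as bars), grouped by branch, over the middle 80% and 50% of 12064 genes (grey bands), the median gene (line) and 2-fold (dashed lines). PGD lies highest at 0.50 and IDH1 lowest at -0.79, and all 9 points lie between the 2-fold lines.

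The oxidative genes had ratios above 1. PGD, which encodes the dehydrogenase that oxidizes 6-phosphogluconate and yields NADPH (ENSG00000142657, GRCh38 chromosome 1, 10398592 to 10420144, plus strand, principal transcript of 13 exons), had 4399 reads in the DHA library and 3296 in the untreated library. On the CPM scale (reads per 1000000 scaled reads), these were 302 CPM in the DHA library and 214 in the untreated library. PGD was thus 1.41-fold higher (1.35 to 1.48) and had a larger ratio than 76.8% of the genes tested. The step before it is catalysed by the lactonase encoded by PGLS (ENSG00000130313, chromosome 19, 17511629 to 17521288, plus strand, 5 exons). PGLS had 494 reads in the DHA library and 451 in the untreated library, a 1.16-fold higher ratio (1.02 to 1.32). An antisense-oriented long non-coding RNA gene, AC010618.3, with 27 reads in the DHA library and 13 in the untreated library, covers 9.17% of the PGLS exon length. The log2 ratio of PGD exceeded that of PGLS by 0.29 (95% counting interval 0.09 to 0.48), which does not depend on how the libraries are scaled.

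The isomerase and epimerase of the non-oxidative branch, which act on the same ribulose 5-phosphate, had ratios on opposite sides of 1. RPIA, the isomerase that makes ribose 5-phosphate (ENSG00000153574, chromosome 2, 88691644 to 88750935, plus strand, 9 exons), had 269 reads in the DHA library and 327 in the untreated library. Its log2 ratio was -0.20 with an interval that spanned 0 (-0.44 to 0.03), and it changed sign to 0.01 when a trend on gene length was removed. RPE, the epimerase that makes xylulose 5-phosphate (ENSG00000197713, chromosome 2, 210002565 to 210022259, plus strand, 6 exons), had 1047 reads in the DHA library and 909 in the untreated library, 1.22-fold higher (1.11 to 1.33). The difference of RPIA minus RPE was -0.49 on the log2 scale (-0.75 to -0.22). The RPE value is uncertain, because KANSL1L on the opposite strand covers 23.8% of its exon length and how the counting used strand is not stated in the labels. KANSL1L had 242 reads in the DHA library and 351 in the untreated library. RPE also has near-identical copies elsewhere, of which the retrogene RPEL1 had 2 reads in the DHA library and 4 in the untreated library. The 8 processed pseudogenes named for RPE, PGD or RPIA had 0 reads in both.

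TKT and TALDO1 exchange carbon units between the sugar phosphates and link the branch back to glycolysis. TKT, transketolase (ENSG00000163931, chromosome 3, 53224707 to 53256052, minus strand, 14 exons), had the most reads of the 9, 15321 in the DHA library and 18992 in the untreated library. It was 1.17-fold lower (1.15 to 1.20), a ratio whose narrow interval reflects its depth. TALDO1, transaldolase (ENSG00000177156, chromosome 11, 747329 to 765024, plus strand, 8 exons), had 2444 reads in the DHA library and 2593 in the untreated library, 168 CPM in each. Its log2 ratio of -0.01 (-0.09 to 0.07) changed sign with total-read scaling and with the length trend removed. TKT lay below TALDO1 by 0.22 on the log2 scale (interval of TKT minus TALDO1 -0.31 to -0.14). The transketolase-like genes TKTL1 and TKTL2 had 0 reads in both libraries. At most 3 reads are compatible with a count of 0, which corresponds to 0.206 CPM in the DHA library and 0.195 in the untreated library.

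Among the NADPH producers outside the pathway, both NADP-dependent isocitrate dehydrogenase genes had the lowest ratios of the 9. IDH1, the cytosolic and peroxisomal enzyme (ENSG00000138413, chromosome 2, 208236227 to 208266074, minus strand, 10 exons), had 1725 reads in the DHA library and 3140 in the untreated library, or 118 CPM in the DHA library and 204 in the untreated library. It was 1.72-fold lower (1.62 to 1.83), a ratio below that of all but 13.9% of the genes tested. IDH2, the mitochondrial enzyme (ENSG00000182054, chromosome 15, 90083045 to 90102504, minus strand, 11 exons), had 398 reads in the DHA library and 626 in the untreated library. It was 1.49-fold lower (1.31 to 1.69), just short of 1.5-fold. IDH1 lay below IDH2 by 0.21 on the log2 scale, with an interval of IDH1 minus IDH2 that ended close to 0 (-0.41 to -0.01).

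ME1, the cytosolic malic enzyme that turns malate into pyruvate (ENSG00000065833, chromosome 6, 83210389 to 83431071, minus strand, 14 exons), had 1760 reads in the DHA library and 1995 in the untreated library. Its 1.07-fold lower ratio had an interval close to 1 (1.01 to 1.14). ME1 exceeded IDH1 by 0.68 on the log2 scale (0.56 to 0.81). The antisense gene IDH1-AS1, which covers 1.99% of the IDH1 exon length, had 1 read in the DHA library and 2 in the untreated library. The exons of the other genes, PGD, RPIA, TKT, TALDO1, ME1 and IDH2, overlap no exon of another annotated gene.

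To compare levels between genes, CPM were divided by the deposited exon length in kilobases. In the DHA library TKT was highest at 111 CPM per kilobase, followed by PGD (102), TALDO1 (55.8), ME1 (35.8), IDH1 (25.1), RPE (20.4), PGLS (11.9), RPIA (9.99) and IDH2 (9.70). The counting intervals of PGLS and RPIA overlapped there, as did those of RPIA and IDH2. In the untreated library the order was TKT (130), PGD (72.2), TALDO1 (56.1), IDH1 (43.2), ME1 (38.4), RPE (16.8), IDH2 (14.5), RPIA (11.5) and PGLS (10.3), and only RPIA and PGLS overlapped between neighbours. IDH1 thus ranked below ME1 in the DHA library and above it in the untreated library. PGD reached 0.920 times the level of TKT in the DHA library and 0.556 times in the untreated library, and its log2 ratio exceeded that of TKT by 0.73 (0.65 to 0.80).

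The exon length of TKT, 9507 bases over 14 annotated transcripts, is far above the 3010 bases of its principal transcript, so its level per length depends on which is used. With principal transcripts TKT stood at 349 CPM per kilobase in the DHA library and 410 in the untreated library. PGD then had 160 in the DHA library and 114 in the untreated library, below TALDO1 (125) in the untreated library alone. TALDO1 had 125 in the DHA library as well. IDH1 ranked above ME1 in both libraries on that scale.

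**Figure D2:**
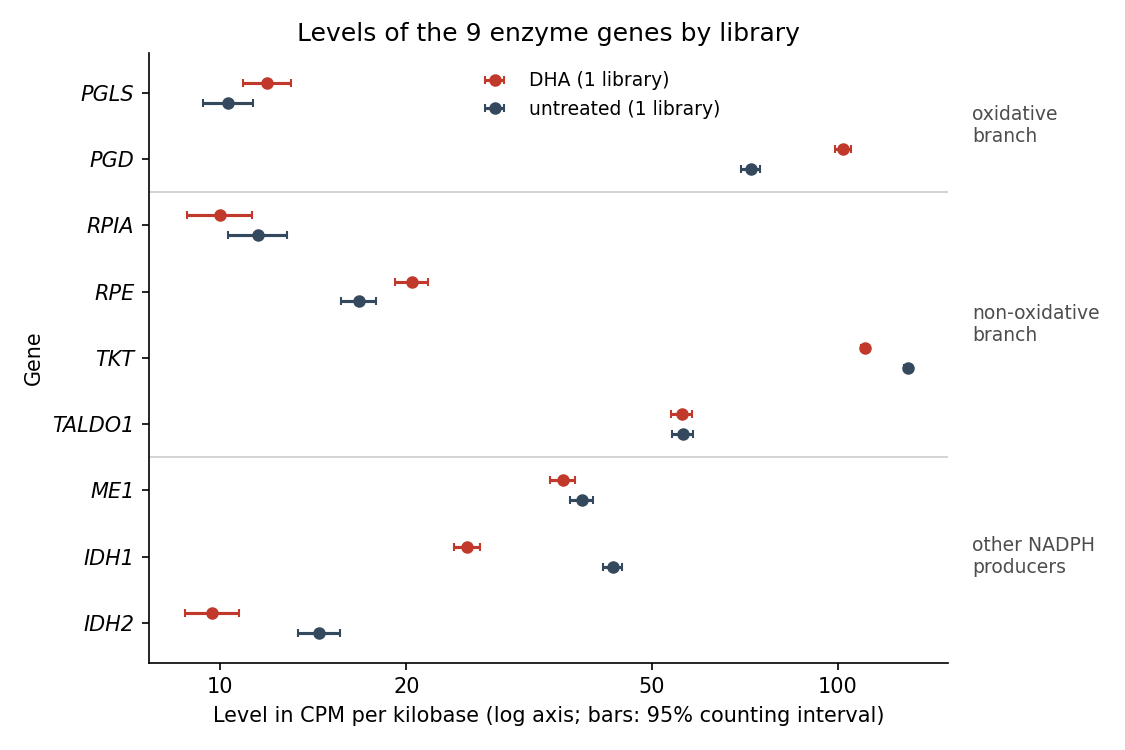
Level of each gene in CPM per kilobase of deposited exon length (log axis) in the DHA library (red, upper point of each pair) and the untreated library (dark blue, lower point), with 95% counting intervals as bars. PGD and IDH1 show pairs of points whose intervals are well apart (PGD 102 in the DHA library and 72.2 in the untreated library, IDH1 25.1 in the DHA library and 43.2 in the untreated library), and the TALDO1 points nearly coincide.

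Summed by branch, the reads of the 9 genes had ratios on both sides of 1. The oxidative genes had 4893 reads in the DHA library (exact 95% Poisson interval 4757 to 5032) and 3747 in the untreated library (3628 to 3869), a 1.38-fold higher ratio (1.32 to 1.44) to which PGD gave most of the reads. The non-oxidative genes had 19081 reads in the DHA library and 22821 in the untreated library, 1.13-fold lower (1.11 to 1.15), and most of these were TKT reads. ME1, IDH1 and IDH2 together had 3883 reads in the DHA library and 5761 in the untreated library, 1.40-fold lower (1.35 to 1.46). Shares were taken of the level per deposited exon length summed over the 9 genes. They depend on the length used and were not computed with principal transcripts. In the DHA library, principal transcripts raise TKT from 111 to 349 CPM per kilobase and PGD from 102 to 160. By deposited length, the oxidative genes made up 29.8% in the DHA library and 21.0% in the untreated library. The non-oxidative share was 51.6% in the DHA library and 54.5% in the untreated library, and the share of ME1, IDH1 and IDH2 was 18.5% in the DHA library and 24.5% in the untreated library. All 9 genes together had a log2 ratio of -0.14 (-0.16 to -0.11), and without TKT it was -0.01 (-0.05 to 0.02).

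The shares of 6.72% higher and 10.3% lower over all genes also apply to the lists of related genes that follow. Of 15 listed genes that feed, drain or draw on pentose phosphates, 10 had enough reads, with 1 lower and 0 higher, close to those shares, and a median log2 ratio of -0.21. FBP1, the gluconeogenic fructose bisphosphatase, fell to 89 reads in the DHA library, against 397 in the untreated library, 4.21-fold lower (3.35 to 5.38). PRPS2, which turns ribose 5-phosphate into the nucleotide precursor PRPP, had a log2 ratio of -0.97 and passed 2-fold lower with DESeq2 size factors (-1.01) and with upper-quartile scaling (-1.04). Its isoenzyme gene PRPS1, named after its value was seen, had 0.14. H6PD, the hexose 6-phosphate dehydrogenase of the endoplasmic reticulum, had -0.82, and the deoxyribose phosphate aldolase gene DERA had -0.70. TIGAR, a fructose bisphosphatase that diverts sugar into the pathway, had 20 reads in the DHA library and 8 in the untreated library, too few for a call. It passed 2-fold higher with a minimum of 10 reads or 1 read (log2 ratio 1.35, interval 0.16 to 2.79), and other annotated genes share 45.6% of its exon length.

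A further list held 12 genes linked to the making of NADPH or its precursor NADP, though not every listed enzyme makes either. Of these, 11 had enough reads, with 3 lower, 0 higher and a median of -0.28. Among all genes, 10.3% were lower and 6.72% higher. The lower ones were ME3, NNT and MTHFD1. ME3, a mitochondrial malic enzyme gene, had 145 reads in the DHA library and 374 in the untreated library (2.44-fold lower). The other mitochondrial malic enzyme gene, ME2, named after its value was seen, had a log2 ratio of 0.35. NNT had 1322 reads in the DHA library and 3176 in the untreated library (2.27-fold lower). MTHFD1 had 1624 reads in the DHA library and 3491 in the untreated library (2.04-fold lower). NNT encodes the transhydrogenase of the mitochondrial inner membrane and MTHFD1 the cytosolic trifunctional folate enzyme. MTHFD2, the mitochondrial folate dehydrogenase, had 2937 reads in the DHA library and 1578 in the untreated library, a log2 ratio of 0.97 just under 2-fold. Other annotated genes share 33.2% of the MTHFD2 exon length. ALDH1L1 had 0 reads in both libraries.

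NADPH is spent in redox defence and in synthesis, and the lists for these uses were not tested against each other. Of 13 genes in redox defence, 1 was higher, TXNRD1 (thioredoxin reductase, log2 ratio 2.76), and 1 lower, the aldose reductase gene AKR1B1 (2.14-fold). The glutathione reductase gene GSR had 0.78 with 2914 reads in the DHA library and 1796 in the untreated library, and AKR1C3 had -0.85, a value that is uncertain because the AKR1C genes are close paralogs. The median of these 13 was -0.05, or 0.10 with the length trend removed and 0.31 over the 11 genes with at least 500 reads. Of 9 in synthesis, 4 were lower and 0 higher, against 10.3% and 6.72% of all genes, with a median of -0.55, or -0.85 at a minimum of 500 reads. They included the fatty acid synthase gene FASN (log2 ratio -2.03) and the sterol reductase gene DHCR7 (2.28-fold).

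NAD-linked relatives and enzymes of the shared substrates had 0 of 12 genes past 2-fold, against 10.3% lower and 6.72% higher among all genes, and a median of -0.29. ACO1, the cytosolic aconitase that makes the isocitrate used by IDH1, stood at -0.86 on the log2 scale, from 2326 reads in the DHA library and 4460 in the untreated library. The pyruvate carboxylase gene PC had -0.59 and the citrate carrier gene SLC25A1 -0.53. IDH3A, a subunit of the NAD-dependent isocitrate dehydrogenase, had 0.37, with 510 reads in the DHA library and 417 in the untreated library. The genes of its other subunits went the other way, IDH3B at -0.20 and IDH3G at -0.27, and were named after their values were seen. Other annotated genes share 38.9% of the IDH3A exon length. No difference between any of these lists and the 9 genes was tested.

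**Figure D3:**
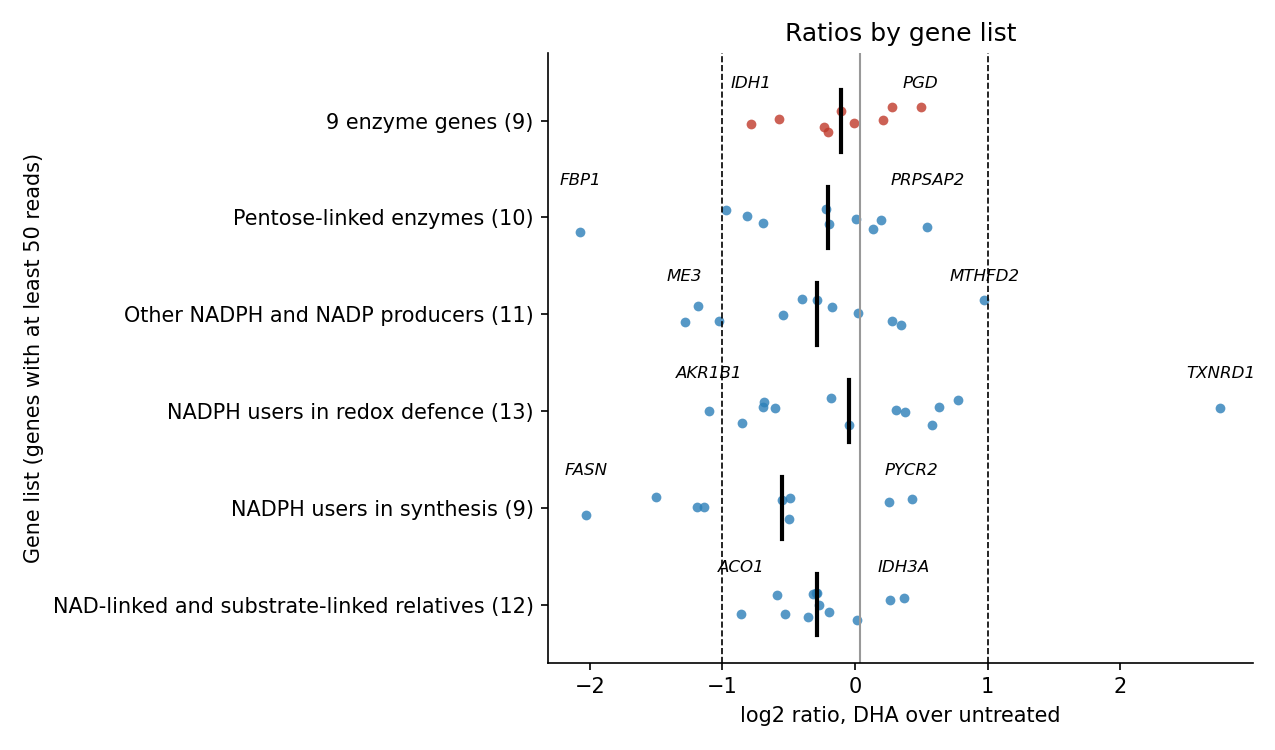
Log2 ratio of the DHA library over the untreated library for each gene with at least 50 reads (points), by list, with the list median as a black bar, the median of 12064 genes as a grey line and 2-fold as dashed lines. The lowest and highest gene of each list are named, and the 9 enzyme genes at the top keep within -0.79 and 0.50 while TXNRD1 reaches 2.76 and FBP1 -2.07.

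The processing moved the 9 ratios little. Over other scalings, read minimums, added reads, gene sets and trend removals, no gene of the 9 passed 2-fold, and the largest shift was 0.21 on the log2 scale (RPIA). PGD ranged from 0.43 to 0.61, IDH1 from -0.85 to -0.77 and IDH2 from -0.64 to -0.45. The sign was kept under each of these settings for PGD, RPE, TKT, ME1, IDH1 and IDH2. PGLS kept it in those it entered, since PGLS and RPIA do not reach the minimum of 500 reads. RPIA and TALDO1 changed sign as given above.

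**Figure D4:**
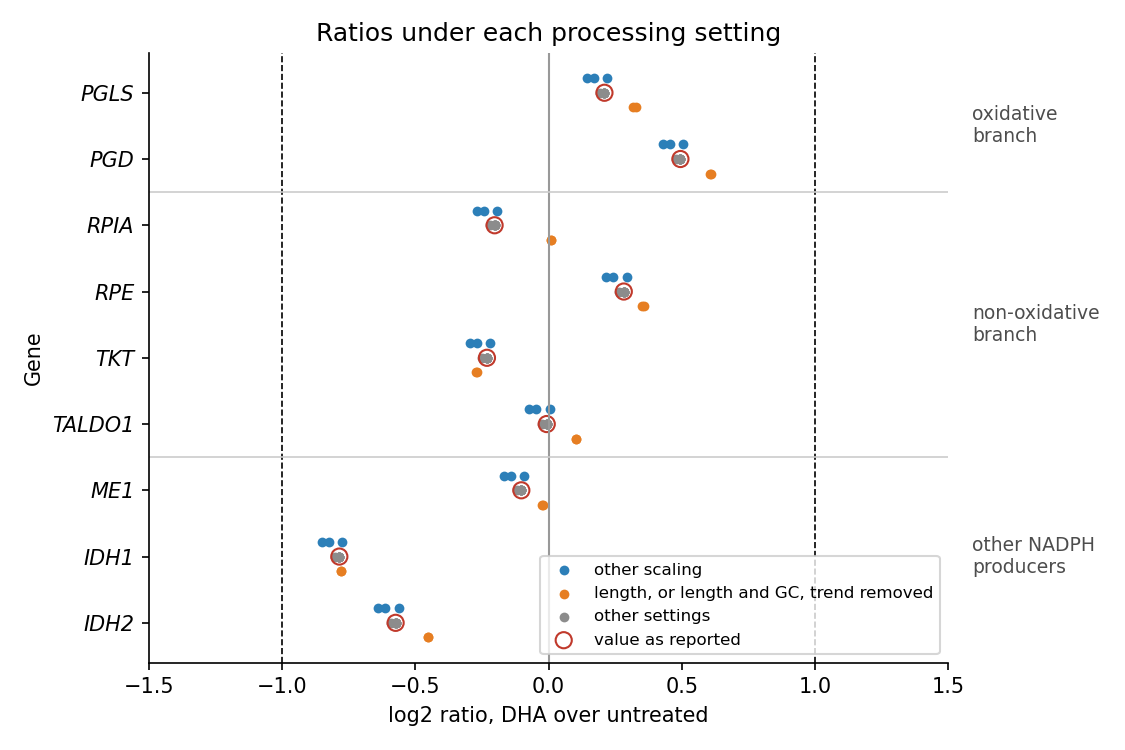
Log2 ratio of the DHA library over the untreated library for each of the 9 genes as reported (open red circles), with other scalings (blue), with a trend on gene length, or on length and GC content, removed (orange) and with the remaining settings (grey). Dashed lines mark 2-fold, which no point reaches, and RPIA and TALDO1 are the genes with points on both sides of 0.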

How the data were processed

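RNA-seq of 1 DHA-treated and 1 untreated library was used. The deposited table holds whole-number counts per gene and, per the file headers, gene lengths in bases. Lengths are a different unit from the counts and, as the authors deposited them, equalled the exon union of GENCODE release 29 for all 58735 rows. The submitters' processing notes list mm8, but identifiers and coordinates are human (GRCh38). The labels state no aligner, counter or strand setting. Groups came from the treatment label.

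Counts were scaled by TMM factors of 1.00 in the DHA library and 0.996 in the untreated library (edgeR 4.0.16, R 4.3.3). Ratios added 0.5 reads to each count, and intervals are exact 95% Clopper-Pearson intervals. They cover counting error only and treat each read as independent, though PCR can copy 1 molecule into several reads. Differences between 2 genes have normal-approximation intervals on the log scale. The calling rule was run on simulated counts with planted changes larger than 2-fold. Those counts varied by counting error alone, so they cannot show how the calls fare with differences between cultures. Alternatives included DESeq2 1.42.0 size factors. The 9 genes are named in full, and up to 4 genes with the largest ratios in either direction per list. Some genes this rule takes are not reported here. The members and lists were chosen with earlier results of these data known.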

Additional observations from a re-analysis of the deposited data

How the results depend on the processing

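No paired analysis was possible because each group has 1 library. With 1.5-fold in place of 2-fold under TMM scaling, 1 of the 9 genes was lower (IDH1). Of all genes, 2284 were higher and 2320 lower, against 811 and 1245 at 2-fold. Calls at 1.5-fold were not made under the other settings, some of which put the IDH2 or PGD ratio past it. With a minimum of 10 reads 1297 genes were higher and 2126 lower, with 1 read 1432 and 2386, and with 500 reads 431 and 379. The median log2 ratio of the 9 genes changed from -0.10 to 0.011 with the length trend removed and to 0.0085 with length and GC trends removed, an alternative chosen after seeing the data. The cause was not tested. Levels per length with principal transcripts were also added after seeing the data. The other alternatives kept the counts of called members at 0 and 0. TPM, which weigh genes by length, would put every ratio 0.16 higher on the log2 scale than TMM, so ME1 and TALDO1 would lie above 0, and TPM were used for shares within a library alone. RPIA had the fewest reads of the 9, and its interval of -0.44 to 0.03 limits what could be seen. Differences between cultures were not measured.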
